A study of Homo sapiens with 6 samples.

Results

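Solute carriers are membrane proteins that move amino acids, sugars, metals, ions and vitamins into and out of cells and their compartments, and their genes carry symbols of the form SLC, family number, A, member number. The 116 genes described here are the solute carriers outside the SLC25 family (the mitochondrial carriers) whose row in the count table named that gene alone and whose raw counts over all 6 libraries summed to at least 600. They came from 195 rows naming 1 such carrier, in a table where 27589 rows named a gene. The count sum took both groups together, so it did not use the difference between them. SLC19A3 with 672 counts and SLC16A4 with 607 lay just inside the limit, and SLC29A4 with 511 just outside. Of the other 79 rows, 46 held fewer than 60 counts.

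The libraries came from MDA-MB-231, an established human triple-negative breast cancer cell line, and polyadenylated RNA was sequenced. A mimic is a synthetic RNA that acts as a mature microRNA once it is inside cells, and the series title names miR-5001-5p. The control group held 3 libraries and the mimic group held 3, and the labels give no dose, no time after transfection and no sequence for the control. No label says whether the 3 libraries of a group came from separate cultures, so the tests measure the spread between these libraries, which may be technical.

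Carriers work in small circuits. Exchangers of neutral amino acids such as SLC7A5 bring in leucine in return for glutamine that SLC1A5 and SLC38A2 accumulate, and SLC7A5 and SLC7A11 both need the heavy chain SLC3A2 to reach the cell surface. Zinc carriers of the SLC39 family bring zinc into the cytosol and those of the SLC30 family take it out, while the SLC12 family moves chloride inwards with sodium or outwards with potassium and thereby sets cell volume.

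Library totals ranged from 31643826 to 32363456 counts, and the 116 carriers held 0.716 to 0.787% of the counts in rows that named a gene. Correlations of log2 library-scaled counts were 0.985 to 0.987 between libraries of 1 group and 0.976 to 0.978 between groups. Of 6 genes expected in this mesenchymal line, VIM and AXL were the most abundant. VIM was at 434 to 571 FPKM (fragments scaled to gene length and library total) and AXL at 182 to 212. CD44, CAV1 and EGFR had control means of 12.1, 33.9 and 44.1 FPKM. ZEB1 was at only 3.89 FPKM in control 1 and at least 9.28 in each other library. The epithelial genes CDH1 and EPCAM were at or under 0.21 FPKM in each library, while ERBB2, of the same list, was at 3.95 to 4.71. The leukocyte and endothelial genes PTPRC, PECAM1, CDH5 and VWF were at or under 0.10, and the leukocyte gene CD14 was at or under 0.165. Levels below are FPKM in the order library 1, 2 and 3, and fold changes are mimic over control from edgeR, whose scaling puts them about 0.08 log2 above the plain ratio of FPKM. Bulk RNA cannot tell fewer cells expressing a gene from less RNA per cell.

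The carriers changed about as often as all genes did. Of the 116 carriers, 107 reached 1 FPKM in at least 3 of 6 libraries and were tested, and 13 were higher with the mimic and 12 lower at an edgeR adjusted p under 0.05. That is 23.4% of the tested carriers, beside 22.3% of the 11260 genes and loci tested, of which 13.6% were higher and 8.63% lower. The share is near the background and is therefore no result about carriers as a group. Their median log2 fold change was -0.03, with a range from -1.12 to 1.21, beside a median of -0.01 over all genes tested. With libraries scaled to their totals in place of TMM, the median of all genes was -0.09 and the carriers split into 12 higher and 19 lower. Only SLC12A2, which was higher, and SLC38A7, which was lower, changed at least 2-fold. The FPKM of the groups did not overlap in 49 of the 107 tested carriers (45.8%), beside 45.9% of all genes and loci tested, so this share too is near the background.

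**Figure D1:**
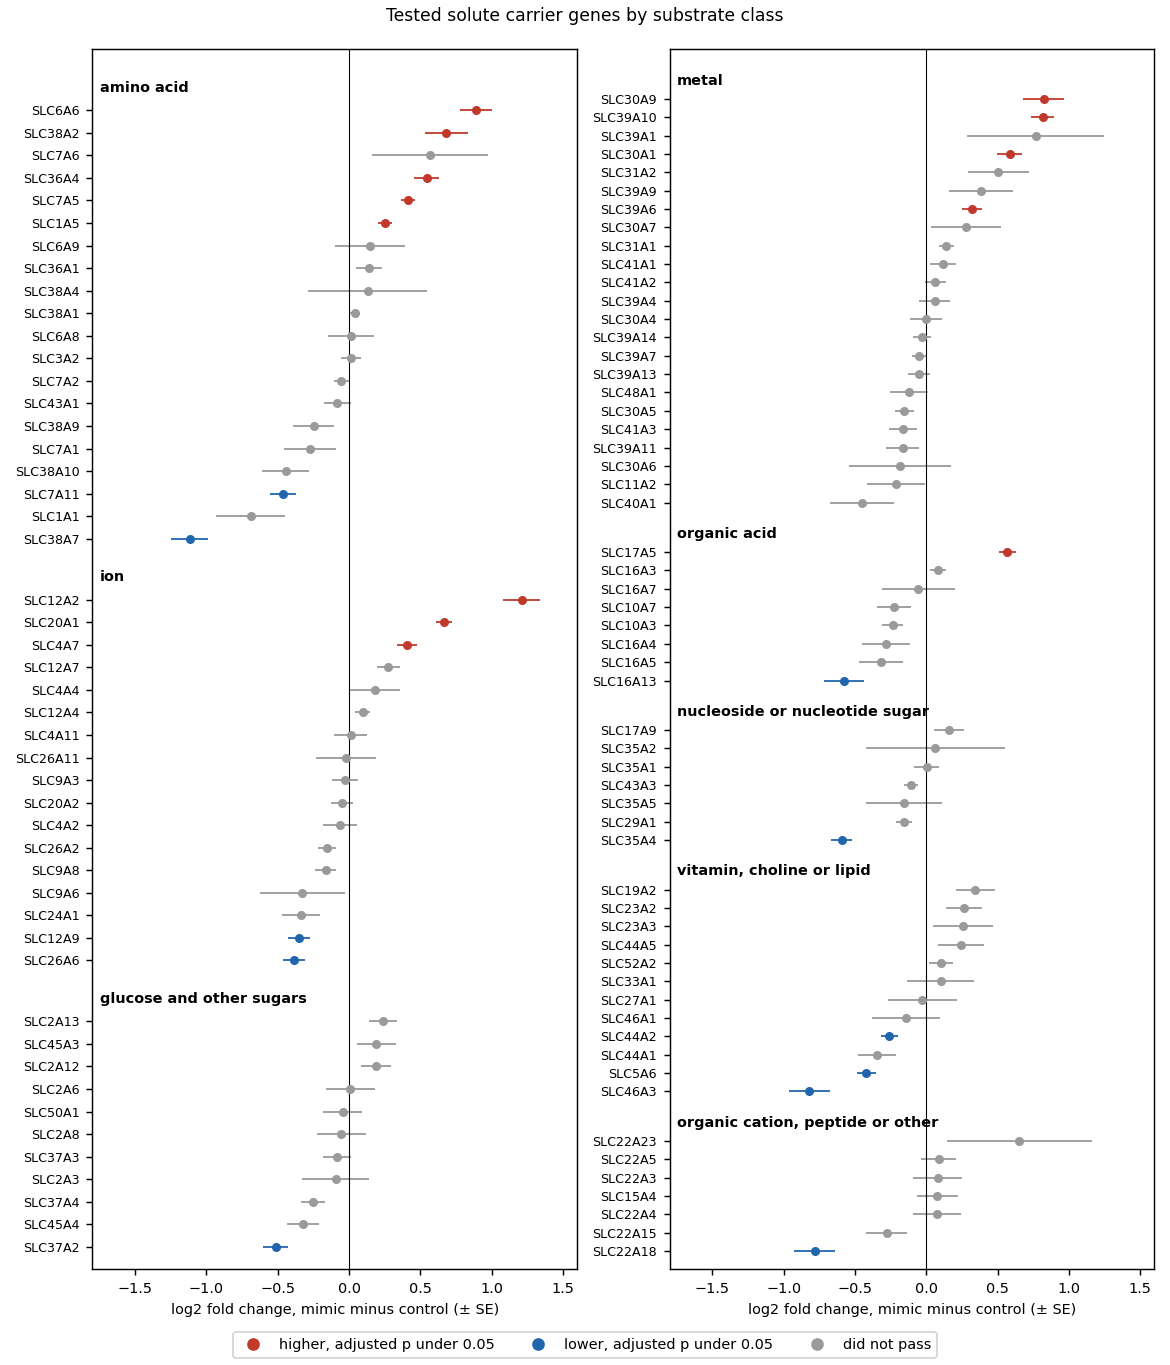
Log2 fold changes (mimic minus control, horizontal axis) of 105 of the 107 tested carriers by substrate class, with bars for 1 SE and colour for the edgeR call at an adjusted p under 0.05. SLC12A2 at 1.21 and SLC38A7 at -1.12 lie at the ends, and most carriers lie near 0.

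Among the 4 classes the comparison was set up for, amino acid carriers had 5 genes higher and 2 lower of 20 tested. Metal carriers had 4 higher and 0 lower of 23 tested, ion carriers 3 higher and 3 lower of 19, and carriers of glucose and other sugars 0 higher and 1 lower of 11. Their median log2 fold changes were 0.03, 0.06, -0.05 and -0.05 in that order. The other classes held 1 higher and 1 lower of 8 organic acid carriers, 0 and 1 of 7 carriers of nucleosides or nucleotide sugars, 0 and 3 of 12 carriers of vitamins, choline or lipids, and 0 and 1 of 7 carriers of organic cations, peptides or other substrates. Where edgeR gave 0, an unadjusted p under 0.05 was reached by 0 metal carriers in the lower direction, and in the higher direction by 1 sugar carrier, 1 vitamin, choline or lipid carrier, 0 nucleoside carriers and 0 carriers of organic cations, peptides or other substrates. DESeq2 also gave 0 in each of these, and limma gave 1 lower metal carrier and 0 higher in the rest. Of all genes and loci tested, 13.6% were higher and 8.63% lower, and no difference between classes was tested.

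**Figure D2:**
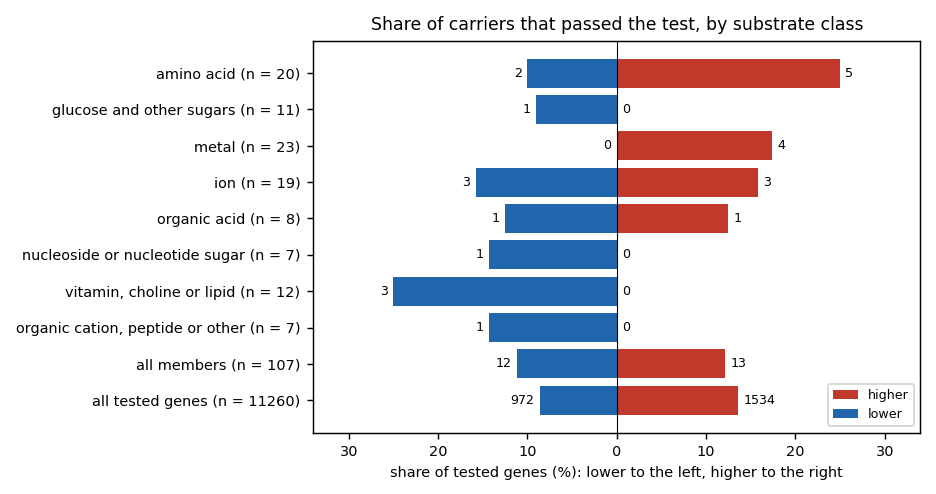
Share of tested genes (horizontal axis, percent) that were lower (left) or higher (right) with the mimic, by substrate class, with the number of genes at each bar. Metal carriers had 4 higher and 0 lower, and all members together, with 13 higher and 12 lower, lie beside 1534 higher and 972 lower among all genes tested.

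The mimicked microRNA and sites searched in the carriers' messages are shown here. Some changed carriers hold them, and so do carriers that did not pass, with the shares given below. The RefSeq mature sequence of miR-5001-5p, from chr2:232550530-232550553 on the minus strand of GRCh38.p14, is printed with its seed, bases 2 to 8, in capitals, and its perfect match in a message reads CCAGCCC. The second motif is the pair of overlapping heptamers AGTACAA and GTACAAA, which earlier work picked by scanning the fold changes of these same libraries, so their counts are no independent support. Both were searched on the message strand of the longest 3′ UTR that GENCODE 29 gives for each gene, and each site below is printed 5′ to 3′ with the motif in capitals. The seed matches printed are a selection from lower carriers only. Those of the lower carrier SLC44A2 and of the higher carriers SLC6A6, SLC38A2 and SLC36A4 are not printed, so the printed set shows no link to direction.
hsa-miR-5001-5p: aGGGCUGGacucagcggcggagcu
SLC12A2: gatgaaagaAGTACAAAaagccttta
SLC6A6, upstream site: ggatattttGTACAAAaagaaaacc
SLC6A6, downstream site: aaaaatcgaAGTACAAAaccacaaga
SLC30A9: acataaaggAGTACAAcatatcaag
SLC38A2, upstream site: acaaattgtGTACAAAcactaaaaa
SLC38A2, downstream site: gaaatcttgGTACAAAttcagatct
SLC30A1: tgacacctaAGTACAAgacatcaac
SLC36A4: tttattttgGTACAAAgtcataaga
SLC7A11: tcattccaaAGTACAAAcatactttg
SLC38A7, upstream site: caaacggtgCCAGCCCggctctgaa
SLC38A7, downstream site: cctcccctgCCAGCCCtagcgtgac
SLC35A4: ctggctagtCCAGCCCagccatggt
SLC37A2: gaacattagCCAGCCCAGCCCagaccccag

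All of these windows are 3′ UTR sequence of GRCh38. The SLC12A2 window is chr5:128186927-128186952 on the plus strand, and those of SLC6A6 are chr3:14485209-14485233 and chr3:14488654-14488679 on the plus strand. The SLC30A9 window is chr4:42088169-42088193 on the plus strand, and those of SLC38A2 are chr12:46358531-46358555 and chr12:46358458-46358482 on the minus strand. SLC30A1 has its window at chr1:211573384-211573408, SLC36A4 at chr11:93146537-93146561 and SLC7A11 at chr4:138166074-138166099, each on the minus strand. The seed match windows of SLC38A7 are chr16:58666676-58666700 and chr16:58666405-58666429 on the minus strand. The seed match of SLC35A4 lies in chr5:140568559-140568583 and the overlapping pair of SLC37A2 in chr11:125088245-125088274, both on the plus strand.

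Of the 13 carriers that were higher, 6 held a heptamer, and of the 12 that were lower only SLC7A11 did. Among the 82 that did not pass, 14 held one. Over all tested rows naming 1 gene with a 3′ UTR, the shares were 41.7% of 1392 higher, 4.80% of 833 lower and 13.7% of 6837 others, beside 46.2%, 8.33% and 17.1% for the carriers. Carriers with a heptamer had a median log2 fold change of 0.13 (21 genes) and those without one -0.05 (86 genes), beside 0.20 and -0.04 over all genes. The carriers' shares and medians thus lay near those of all genes.

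The seed match CCAGCCC was present in 4 of the 12 lower carriers (SLC38A7, SLC35A4, SLC37A2 and SLC44A2), in 3 of the 13 higher ones (SLC6A6 with 4 sites, SLC38A2 and SLC36A4) and in 27 of the 82 others. As shares these are 33.3%, 23.1% and 32.9%, beside 32.7%, 17.5% and 23.1% over all genes, and 31.8% of all tested carriers held a match. Carriers with a match had a median log2 fold change of -0.03 and those without one of -0.00, beside -0.04 and 0.01 over all genes. The 3′ UTRs differed in length as well, with medians of 2947 bases for the higher carriers, 1052.5 for the lower ones and 1785.5 for the others. The part of UTR length in these counts was not tested.

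**Figure D3:**
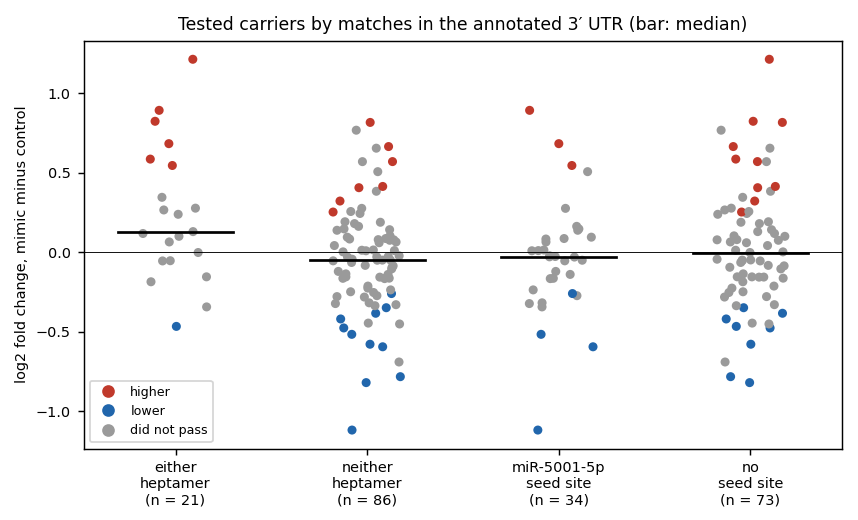
Log2 fold change (mimic minus control, vertical axis) of each tested carrier by whether its annotated 3′ UTR holds either heptamer (21 genes) or not (86), and a miR-5001-5p seed match (34 genes) or not (73), with a bar at the median and colour for the edgeR call. The medians are 0.13 and -0.05 for the heptamers and -0.03 and -0.00 for the seed match.

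Amino acid carriers include the most abundant changed carrier, SLC38A2, and the one that fell most, SLC38A7. SLC38A2, the sodium-coupled neutral amino acid importer SNAT2 that starved cells increase, measured 79.3, 57.8 and 69.7 FPKM in the control libraries and 126, 89.8 and 98.3 in the mimic libraries. The groups did not overlap, although the lowest mimic library stood only a little above the highest control library. The gene was 1.60-fold higher (log2 fold change 0.68 ± 0.15 SE, edgeR adjusted p = 0.0205), and the call was lost without control 2 or control 3, where adjusted p reached 0.0623. Its relative SLC38A1, another sodium-coupled glutamine importer, was at 53.5 ± 0.894 FPKM (SD, n = 3) in control and 52.2 ± 1.29 in mimic libraries, with a log2 fold change of 0.04 ± 0.04 SE (edgeR adjusted p = 0.471).

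SLC6A6, the taurine importer, lies at chr3:14402576-14489349 and measured 6.45, 7.21 and 5.58 FPKM in control and 10.2, 11.7 and 11.9 in mimic libraries. Each mimic library exceeded each control library by a wide gap. It was 1.85-fold higher (0.89 ± 0.11, edgeR adjusted p = 0.00217) and passed with any 1 library left out. SLC36A4, a high-affinity carrier of proline and tryptophan, rose from 6.68, 5.42 and 6.23 FPKM to 8.83, 8.55 and 7.98 (1.46-fold, edgeR adjusted p = 0.00592), again without overlap.

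In the leucine and glutamine circuit, SLC7A5 and SLC1A5 moved by less than SLC38A2. SLC7A5, the exchanger LAT1 that imports leucine, measured 27.1, 25.6 and 26.0 FPKM in control and 34.7, 32.2 and 32.3 in mimic libraries. Replicates lay close together in both groups, and the gene was 1.33-fold higher (0.41 ± 0.05, edgeR adjusted p = 0.00184). SLC1A5, the glutamine exchanger ASCT2, went from 58.4, 57.4 and 53.1 FPKM to 63.1, 63.5 and 64.1, which was 1.19-fold higher (0.25 ± 0.05, edgeR adjusted p = 0.0130). Of the exon bases of SLC1A5, 23.4% overlap an antisense gene, and whether counting used strand is not given in the sources used here. SLC3A2, the heavy chain that LAT1 needs, was at 19.2 ± 1.28 FPKM in control and 18.4 ± 0.943 in mimic libraries, with a log2 fold change of 0.01 ± 0.07 (edgeR adjusted p = 0.920).

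SLC7A11, the light chain of the cystine-glutamate exchanger xCT that feeds glutathione synthesis, fell. It measured 10.5, 10.5 and 10.8 FPKM in control and 8.12, 7.37 and 6.31 in mimic libraries, all 3 below every control library. The change was 1.38-fold (-0.47 ± 0.09, edgeR adjusted p = 0.0122), and it was the one lower carrier with a heptamer, in the window printed above. The opposite-strand gene SLC7A11-AS1 overlaps 8.97% of its exon bases. SLC7A5 and SLC7A11 thus passed in opposite directions while their shared heavy chain did not pass.

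SLC38A7, a lysosomal exporter of glutamine and asparagine at chr16:58665109-58685104, measured 3.29, 3.52 and 3.20 FPKM in control and 1.38, 1.71 and 1.28 in mimic libraries. No mimic library exceeded 1.71 FPKM and no control library was under 3.20. The gene was 2.17-fold lower (-1.12 ± 0.13, edgeR adjusted p = 0.00159) and passed in all 6 leave-one-out fits. Its 3′ UTR of 2276 bases holds the pair of seed matches printed above.

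Several amino acid carriers did not pass. SLC7A1, the arginine and lysine importer, measured 50.0, 48.9 and 48.6 FPKM in control and 27.8, 48.3 and 39.5 in mimic libraries, so mimic 1 stood far below the rest and the groups did not overlap. Its log2 fold change was -0.27 ± 0.18 (edgeR adjusted p = 0.323) and -0.08 without mimic 1. SLC7A6, a cationic and neutral amino acid exchanger, ranged from 5.99 to 12.2 FPKM in control and from 6.56 to 18.3 in mimic libraries, and the groups overlapped. The opposite-strand gene SLC7A6OS overlaps 44.4% of the exon bases of SLC7A6. SLC1A1, a glutamate importer, had a log2 fold change of -0.69 ± 0.24 (edgeR adjusted p = 0.0840, and 0.0379 without control 2). SLC38A10, an SNAT family member, was at -0.45 ± 0.16 (edgeR adjusted p = 0.0986, and 0.0409 without control 3).

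**Figure D4:**
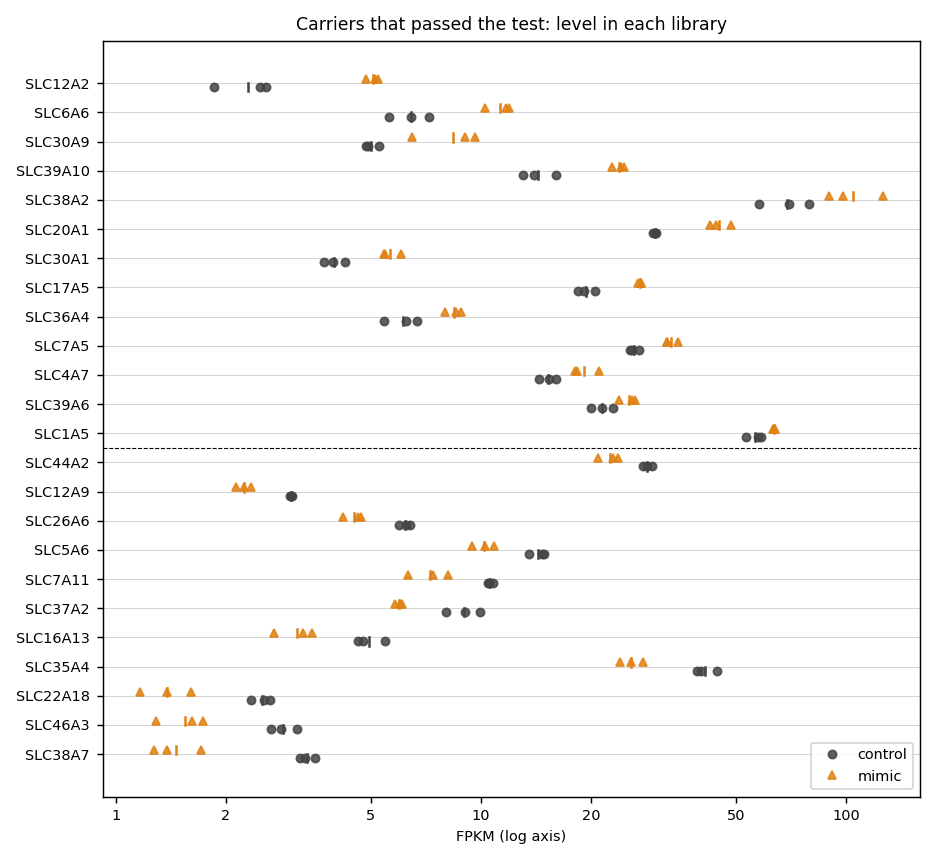
FPKM (log axis) in each control library (circles) and mimic library (triangles) for 24 of the 25 carriers that passed the test, ordered by fold change, with a tick at each group mean and a dashed line between higher and lower carriers. Groups do not overlap for any of them, beside 45.9% of all genes and loci tested without overlap. The carriers shown were picked by a test on these same libraries, so this adds no support. SLC38A2 is the most abundant at 68.9 FPKM in control and 105 in mimic libraries.

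Among metal carriers with a row of their own, the 4 that changed all move zinc and all were higher. The 15 tested zinc carriers of the SLC30 and SLC39 families had 4 higher and 0 lower, with a median log2 fold change of 0.06. That is 26.7% of the 15, beside 22.3% of all genes and loci tested (13.6% higher and 8.63% lower). The share is near the background and is no result about zinc carriers as a group. None of the 15 had an unadjusted p under 0.05 in the lower direction. DESeq2 gave 4 higher and 0 lower as well, and limma 4 higher and 1 lower. Importers and exporters both appear among the 4, which are SLC39A10, SLC39A6, SLC30A1 and SLC30A9. A further zinc importer, SLC39A8, shared its row with AC098487.1 and so was no member. That row went the other way (-0.39 ± 0.06, edgeR adjusted p = 0.00521) and passed with any 1 library left out.

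SLC39A10, the importer ZIP10 of the surface membrane, measured 16.1, 13.9 and 13.02 FPKM in control and 24.1, 24.7 and 22.9 in mimic libraries. All mimic libraries were far above all control libraries, and the gene, at chr2:195575977-195737702, was 1.76-fold higher (0.82 ± 0.08, edgeR adjusted p = 0.000909). Its close relative SLC39A6, the importer ZIP6 first described as the oestrogen-regulated gene LIV-1, went from 23.0, 20.0 and 21.4 FPKM to 26.5, 26.0 and 23.9. The gap between the groups was small, and the 1.25-fold rise (edgeR adjusted p = 0.0191) passed in only 2 of 6 leave-one-out fits, with adjusted p up to 0.0648 without control 2, control 3, mimic 1 or mimic 2 and 0.0513 with library totals.

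SLC30A1, the zinc exporter ZnT1 of the surface membrane, measured 3.94, 4.23 and 3.72 FPKM in control and 6.05, 5.43 and 5.45 in mimic libraries. No library of either group reached into the other, and the rise was 1.50-fold (0.59 ± 0.09, edgeR adjusted p = 0.00479). SLC30A9, the mitochondrial zinc exporter, measured 4.85, 4.90 and 5.27 FPKM in control and 9.06, 9.66 and 6.47 in mimic libraries. Mimic 3 lay well below the other mimic libraries and still above all controls, and the gene was 1.77-fold higher (0.82 ± 0.14, edgeR adjusted p = 0.00849). SLC30A1 and SLC30A9 hold a heptamer in their 3′ UTRs, and SLC39A10 and SLC39A6 hold none.

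SLC39A7, which releases zinc from the endoplasmic reticulum, was the most abundant of the 116 carriers, with a mean of 150 FPKM over the 6 libraries. It was at 157 ± 4.16 FPKM in control and 144 ± 6.31 in mimic libraries, a log2 fold change of -0.05 ± 0.05 (edgeR adjusted p = 0.527). SLC39A1, the importer ZIP1, measured 17.4, 16.0 and 15.1 FPKM in control and 49.9, 13.9 and 14.7 in mimic libraries. A single library, mimic 1, carried its log2 fold change of 0.77 ± 0.48 (edgeR adjusted p = 0.301), which was -0.09 without it. Of the exon bases of SLC39A1, 60.8% overlap the same-strand gene AL358472.7, so its reads may not all be its own. SLC39A14, a zinc and iron importer, was at -0.03 ± 0.06 (edgeR adjusted p = 0.772).

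The 4 iron and copper carriers named here did not pass in edgeR, DESeq2 or limma, and 2 of them, both copper carriers, had an unadjusted p under 0.05. SLC40A1, the iron exporter ferroportin, measured 1.39, 1.01 and 1.28 FPKM in control and 0.749, 0.703 and 1.10 in mimic libraries, with overlap and a log2 fold change of -0.45 ± 0.22 (edgeR adjusted p = 0.194). SLC11A2, the iron importer DMT1, was at -0.21 ± 0.20 (edgeR adjusted p = 0.500). SLC31A1, the copper importer CTR1, was at 0.14 ± 0.05 (edgeR adjusted p = 0.105), and its relative SLC31A2 at 0.51 ± 0.21 (edgeR adjusted p = 0.134). The opposite-strand gene FKBP15 overlaps 63.1% of the exon bases of SLC31A2. Of 6 tested metal-handling genes outside the carriers, beside 22.3% of all genes and loci tested that passed, 1 was higher and 0 lower (2 lower at an unadjusted p under 0.05 and with limma, 0 with DESeq2). That gene was STEAP3, an endosomal reductase that prepares iron for DMT1, which went from 2.67 ± 0.132 to 4.13 ± 0.0468 FPKM (0.71 ± 0.08, edgeR adjusted p = 0.00120). The transferrin receptor TFRC was at -0.18 ± 0.06 (edgeR adjusted p = 0.0748).

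Ion carriers split evenly, and the largest rise among them was in the SLC12 family. SLC12A2, the sodium, potassium and chloride importer NKCC1 at chr5:128083766-128189688, measured 2.58, 2.48 and 1.86 FPKM in control and 5.13, 4.84 and 5.24 in mimic libraries. Every mimic library lay far above every control library, and the 2.32-fold rise (1.21 ± 0.13, edgeR adjusted p = 0.00114) was the largest among the 107 tested carriers.

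Other SLC12 members moved by less. SLC12A9, a family member of debated substrate, went from 3.04, 2.99 and 3.03 FPKM to 2.25, 2.14 and 2.35 (1.27-fold lower, edgeR adjusted p = 0.0206). Its groups were far apart for their spread, yet the call held in only 1 of 6 leave-one-out fits, the one without mimic 3, with adjusted p up to 0.0673 in the others and 0.0758 without the filter on low values. SLC12A7, the exporter KCC4, was at 0.28 ± 0.08 (edgeR adjusted p = 0.0528) and SLC12A4, the exporter KCC1, at 0.09 ± 0.05 (edgeR adjusted p = 0.243). Among 6 tested kinases and regulators of chloride cotransport, 1 was higher and 0 lower, beside 22.3% of all genes and loci tested that passed. The counts were the same at an unadjusted p under 0.05 and with DESeq2 and limma. The 1 higher gene was STK39, the kinase SPAK that activates NKCC1, which went from 10.0 ± 0.438 to 13.7 ± 1.19 FPKM (0.53 ± 0.08, edgeR adjusted p = 0.00480). None of 4 tested genes of the volume-regulated anion channel passed in edgeR, DESeq2 or limma, and 0 of them had an unadjusted p under 0.05.

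SLC20A1, the sodium-coupled phosphate importer PiT1, had the smallest adjusted p of the carriers. It measured 30.2, 29.7 and 30.0 FPKM in control and 48.5, 42.3 and 44.1 in mimic libraries, and the control libraries were nearly equal. The rise was 1.58-fold (0.66 ± 0.06, edgeR adjusted p = 0.000416). Its paralog SLC20A2, the importer PiT2, was at 4.80 ± 0.333 FPKM in control and 4.39 ± 0.210 in mimic libraries, a log2 fold change of -0.05 ± 0.08 (edgeR adjusted p = 0.687).

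Of bicarbonate and anion carriers, 1 of 4 tested SLC4 genes and 1 of 3 tested SLC26 genes passed, beside 22.3% of all genes and loci tested. Counts this small are no result about either family. SLC4A7, the sodium bicarbonate importer NBCn1, went from 15.3, 16.0 and 14.5 FPKM to 18.4, 21.0 and 18.1 (1.32-fold, 0.41 ± 0.07, edgeR adjusted p = 0.00855). SLC26A6, an exchanger of chloride for oxalate or bicarbonate, went from 6.22, 5.95 and 6.41 FPKM to 4.61, 4.18 and 4.70 (1.30-fold lower, edgeR adjusted p = 0.0139). Groups were apart for both, and the call of SLC26A6 was lost without control 3 (adjusted p = 0.0554). None of the 4 tested SLC9 genes, the sodium and proton exchangers, passed in edgeR, DESeq2 or limma or had an unadjusted p under 0.05.

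Of 6 tested partners of ion or monocarboxylate carriers, 3 were higher (SLC9A3R1, SLC9A3R2 and NPTN) and 1 lower (CHP1), beside 22.3% of all genes and loci tested that passed. No test of the list was run. The SLC9A3R2 call was lost without control 2, control 3 or mimic 1 (edgeR adjusted p up to 0.0845) and with library totals (edgeR adjusted p = 0.0561). NPTN is a partner of monocarboxylate carriers, not of ion carriers. SLC9A3R1, the scaffold NHERF1 that holds sodium and proton exchangers and other carriers at the membrane and is no carrier itself, measured 11.3, 9.62 and 9.76 FPKM in control and 25.2, 26.3 and 24.9 in mimic libraries. It was 2.63-fold higher (edgeR adjusted p = 0.000101), a larger change than that of any of the 107 tested carriers. CHP1, a calcium-binding partner of sodium and proton exchangers, went from 11.2 ± 2.84 to 6.60 ± 0.493 FPKM (-0.68 ± 0.17, edgeR adjusted p = 0.0323), a call lost without control 3 or any 1 mimic library (adjusted p up to 0.0965). The sodium pump, whose gradient drives most of these carriers, had its regulatory subunit ATP1B1 1.59-fold higher (11.8 ± 2.13 to 17.9 ± 2.29 FPKM, edgeR adjusted p = 0.0206). That call was lost without control 1, control 2, mimic 1 or mimic 3 (adjusted p up to 0.0686).

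Of 11 tested carriers of glucose and other sugars, 1 was lower in edgeR and 0 higher, and limma gave 3 lower. SLC37A2, a glucose-6-phosphate exchanger of the endoplasmic reticulum, went from 9.06, 8.02 and 9.93 FPKM to 5.99, 5.82 and 6.10. Mimic libraries were tightly grouped under all controls, and the gene was 1.43-fold lower (-0.52 ± 0.09, edgeR adjusted p = 0.00762). SLC37A4, the glucose-6-phosphate carrier of the same compartment, was at -0.25 ± 0.08 (edgeR adjusted p = 0.0745) and SLC45A4 at -0.32 ± 0.11 (edgeR adjusted p = 0.0782), with the groups apart in both.

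None of the 5 tested SLC2 genes, the facilitative sugar carriers, passed in edgeR, DESeq2 or limma, and 1 had an unadjusted p under 0.05. SLC2A3, the neuronal-type glucose importer GLUT3, measured 22.1, 11.6 and 12.5 FPKM in control and 13.7, 14.1 and 13.1 in mimic libraries, and control 1 stood above the other 5. Its log2 fold change was -0.09 ± 0.23 (edgeR adjusted p = 0.806), and 0.26 without control 1 (adjusted p = 0.0671). SLC2A13, a proton-coupled inositol importer, was at 0.24 ± 0.10 (edgeR adjusted p = 0.120). SLC2A1, the main glucose importer GLUT1, shared its row with AC099795.1 and so was no member, and that row was at 61.0 ± 3.33 FPKM in control and 55.8 ± 0.966 in mimic libraries (-0.05 ± 0.05, edgeR adjusted p = 0.521).

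Organic acid carriers had 1 change in each direction. SLC17A5, the lysosomal sialic acid exporter sialin, went from 20.6, 18.5 and 19.1 FPKM to 27.4, 27.0 and 27.4. The mimic libraries were almost equal and all above the controls, and the rise was 1.48-fold (0.57 ± 0.06, edgeR adjusted p = 0.00105). SLC16A13, a monocarboxylate carrier, went from 5.48, 4.76 and 4.60 FPKM to 3.26, 2.71 and 3.45 (1.49-fold lower, edgeR adjusted p = 0.0269). That call held only without mimic 3, and adjusted p reached 0.0872 in the other leave-one-out fits. SLC16A3, the lactate exporter MCT4, measured 20.9, 19.5 and 20.9 FPKM in control and 19.6, 21.6 and 20.3 in mimic libraries, with overlap (0.08 ± 0.05, edgeR adjusted p = 0.319). SLC16A1, the lactate carrier MCT1, summed to 246 counts over the 6 libraries and was therefore no member. BSG, the chaperone that MCT1 and MCT4 need, was at 166 ± 4.72 FPKM in control and 166 ± 6.81 in mimic libraries (0.08 ± 0.05, edgeR adjusted p = 0.293).

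Among carriers of nucleosides and nucleotide sugars, SLC35A4, a member of the nucleotide sugar carrier family, was lower. It measured 40.1, 39.1 and 44.2 FPKM in control and 27.8, 24.0 and 25.8 in mimic libraries, far apart for their spread. The gene was 1.51-fold lower (-0.59 ± 0.07, edgeR adjusted p = 0.00206), its 3′ UTR holds 1 seed match, and 7.83% of its exon bases overlap APBB3. SLC29A1, the nucleoside importer ENT1 through which gemcitabine and other nucleoside drugs enter cells, was at 35.6 ± 2.33 FPKM in control and 30.3 ± 0.543 in mimic libraries (-0.16 ± 0.06, edgeR adjusted p = 0.101).

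Carriers of vitamins, choline and lipids had 3 genes lower and 0 higher of 12 tested. SLC46A3, a lysosomal membrane carrier at chr13:28700064-28718970, went from 3.13, 2.66 and 2.84 FPKM to 1.62, 1.73 and 1.29, clearly under all controls (1.76-fold, -0.82 ± 0.14, edgeR adjusted p = 0.00848). SLC5A6, the sodium-dependent importer of biotin, pantothenate and lipoate, went from 14.7, 13.6 and 14.8 FPKM to 10.8, 10.3 and 9.48 (1.34-fold, -0.42 ± 0.07, edgeR adjusted p = 0.00709), and 7.37% of its exon bases overlap ATRAID on the opposite strand. SLC44A2, a choline carrier, went from 28.5, 29.4 and 27.7 FPKM to 23.8, 23.1 and 20.9 (1.20-fold, edgeR adjusted p = 0.0216). The groups of both were apart, but the call of SLC44A2 was lost without any 1 of the control libraries, with adjusted p up to 0.0755. SLC27A5, a bile acid and fatty acid ligase below the level for the main test, was singled out after its values were seen. It measured 1.00, 0.840 and 0.765 FPKM in control and 0.527, 0.511 and 0.578 in mimic libraries, and in a fit over the 11151 rows with at least 600 counts, of which 22.7% passed, it was at -0.61 ± 0.14 (edgeR adjusted p = 0.0251).

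SLC22A18, an imprinted gene of the organic cation carrier family, was lower. It went from 2.34, 2.65 and 2.54 FPKM to 1.38, 1.16 and 1.61, without overlap (1.72-fold lower, -0.78 ± 0.14, edgeR adjusted p = 0.0103). Its antisense neighbour SLC22A18AS covers 4.27% of its exon bases.

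Of 8 tested trafficking regulators, NEDD4L was higher and ARRDC4 lower, beside 22.3% of all genes and loci tested that passed. NEDD4L, a ubiquitin ligase that removes sodium channels and amino acid carriers from the membrane, went from 27.7 ± 0.0313 to 37.1 ± 2.36 FPKM (0.50 ± 0.05, edgeR adjusted p = 0.00103). ARRDC4, an arrestin that draws glucose importers inwards, went from 6.50 ± 0.489 to 4.75 ± 0.318 FPKM (-0.37 ± 0.10, edgeR adjusted p = 0.0335), and its relative TXNIP was at -0.16 ± 0.11 (edgeR adjusted p = 0.352). The ARRDC4 call held only without mimic 2, and adjusted p reached 0.105 otherwise. Of 10 tested genes of amino acid sensing, 2 were higher and 2 lower in edgeR, beside 22.3% of all genes and loci tested that passed. With DESeq2 3 were higher and 4 lower, beside 1770 higher and 1269 lower of all 11260 rows tested. Both limma fits gave 1 higher and 4 lower, beside 1128 higher and 1707 lower of all rows on log2(FPKM + 1). No test of this list was run. ATF4, the starvation factor that induces SLC7A11, SLC7A5 and SLC38A2 among others, went from 67.2 ± 2.93 to 77.1 ± 7.79 FPKM (0.28 ± 0.08, edgeR adjusted p = 0.0459), a call lost with library totals (adjusted p = 0.110) and without each library other than mimic 2 (up to 0.132). LAMTOR3, a lysosomal anchor of mTORC1, was 2.16-fold higher (edgeR adjusted p = 0.00172), and the Rag GTPases RRAGB (-0.54 ± 0.14, edgeR adjusted p = 0.0308) and RRAGD (-0.29 ± 0.07, edgeR adjusted p = 0.0261) were lower. The RRAGB call held only without control 2 and the RRAGD call only without control 2 or mimic 2, and adjusted p otherwise reached 0.0944 for RRAGB and 0.0844 for RRAGD.

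Carriers in rows shared with another gene stayed out of the 116. Of 13 such rows, 7 were tested, and 0 were higher at an unadjusted p under 0.05 or with DESeq2. In edgeR, beside 22.3% of all genes and loci tested that passed, 0 were higher and 2 lower. These were the row of SLC39A8, the zinc and manganese importer ZIP8, with AC098487.1 (-0.39 ± 0.06, edgeR adjusted p = 0.00521) and that of INTS3 with SLC27A3 (-0.32 ± 0.08, edgeR adjusted p = 0.0252, and up to 0.0797 without control 2, control 3 or mimic 2), in which the source of the reads cannot be told apart.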

How the data were processed

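The authors deposited raw counts and FPKM for 6 libraries in 1 table, per the file headers, with 66381 rows. Trimming used cutadapt 1.9, quality control used FastQC and GRCh38, also named as hg38, was the genome, per the submitters' processing notes. The sources used here name no aligner or counter and do not give the strandedness. The deposited FPKM follow from the counts, 1 fixed length per row and the library total. Rows naming no gene (38792, holding 2.46 to 2.70% of counts) were left out.

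The 11260 rows that reached FPKM 1 in 3 or more of the 6 libraries were tested on the counts with edgeR 4.0.16 (glmQLFit, glmQLFTest, TMM, two-sided, Benjamini-Hochberg over all rows, threshold 0.05). The SE was taken as the fold change on the log2 scale over the root of the F statistic. Exact permutation of 3 against 3 libraries cannot go below p = 0.1, so only the fit across all rows was used. The procedure was also run on simulated counts with as many rises as falls, which cannot test the choice of scaling. Alternatives were library totals, DESeq2 1.42.0, other filters, limma on log2(FPKM + 1) and log2(FPKM + 0.1), a replicate block and leaving out each library.

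No pair of libraries was alike within counting error (lowest chi-square per degree of freedom 26.9). Members, classes and gene lists were chosen with earlier results of these data known. Carriers named were those past the test, some with the smallest p of their class, the most abundant, a list of well-known carriers, and relatives of the same class or family. SLC27A5, SLC30A6 and SLC35A2 were chosen after their values were seen. Genes outside the carriers were named mainly for the smallest p within their list. Sequences are from RefSeq (GRCh38.p14) and GENCODE 29. Results of a few genes are not reported here, and the plots leave them out.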

Additional observations from a re-analysis of the deposited data

How the results depend on the processing

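The numbers of carriers called higher and lower, 13 and 12, ranged from 11 to 14 and from 9 to 14 when each library was left out in turn. Among amino acid carriers the ranges were 4 to 5 higher and 2 to 3 lower, among metal carriers 3 to 5 higher and 0 to 0 lower, among ion carriers 3 to 3 higher and 1 to 4 lower, and among sugar carriers 0 to 0 higher and 1 to 1 lower. Counts that moved past 1.5 times the reported one included 19 lower carriers with library totals, 4 lower amino acid carriers with DESeq2, and 1 lower metal carrier with library totals, limma on log2(FPKM + 1) and limma on log2(FPKM + 0.1). Lower sugar carriers numbered 3 with library totals, 2 with DESeq2, 3 with limma on log2(FPKM + 1) and 3 with limma on log2(FPKM + 0.1). Lower nucleoside or nucleotide sugar carriers, 1 in edgeR, numbered 3 and 2 with the same limma fits, and lower organic acid carriers, also 1, numbered 2 with DESeq2 and with both limma fits. Without the filter on low values, 13 were higher and 12 lower.

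The same replicate number did not pair samples, as correlations of same-numbered libraries were -0.0086, 0.060 and -0.050. With the replicate block, 13 carriers were higher and 10 lower, and SLC16A13 (adjusted p = 0.055) and SLC12A9 (adjusted p = 0.054) lost their calls.

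Directions turned only in carriers that had not passed. With each library left out, SLC2A3 ranged from -0.26 to 0.26 (0.26 without control 1), SLC39A1 from -0.093 to 1.07 (-0.093 without mimic 1), SLC39A14 from -0.077 to 0.0086 (above 0 without control 1 or mimic 3) and SLC3A2 from -0.029 to 0.062 (below 0 without control 2 or mimic 3). SLC3A2 was at -0.067 with library totals, -0.061 with limma on log2(FPKM + 1) and -0.064 with limma on log2(FPKM + 0.1). SLC38A1 was at -0.037, -0.035 and -0.035 under the same alternatives. The causes were not tested. Of the 116 carriers, 9 were too low for the main test.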

Other observations

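A few carriers jumped between levels within a group. SLC30A6, a zinc carrier of the secretory pathway, measured 4.21, 8.73 and 8.57 FPKM in control and 8.86, 4.50 and 4.61 in mimic libraries. SLC35A2, the Golgi carrier of UDP-galactose, measured 4.84, 2.81 and 8.13 FPKM in control and 3.48, 8.74 and 3.43 in mimic libraries. In both genes the libraries fell into a low and a high set that cut across the groups, so their log2 fold changes of -0.19 ± 0.36 and 0.06 ± 0.49 (edgeR adjusted p = 0.747 and 0.942) rest on libraries that differ within each group. These carriers were singled out after their values were seen.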
